A study of Mus musculus with 4 samples.

Results

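Strong shared intronic peaks are windows of open chromatin inside introns of protein-coding genes that were found in both cultures of a mouse acute myeloid leukemia (AML). They were selected on their deposited peak score in replicate 1 (130 or more), on overlap with a peak of replicate 2 by at least 1 bp, and on position. A window had to lie on an autosome, inside the body of a protein-coding gene, outside its exons, and more than 1 kb from every annotated transcription start site (TSS) of protein-coding genes. Of 230627 unique autosomal peaks of replicate 1, 5163 (2.24%) met the rule. The score, the sharing and the placement are therefore the means of selection and are given below as description, without a test.

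The data are DNase-seq, which cuts open chromatin in nuclei with DNase I and sequences the cut ends. The labels describe AML cells of strain C57BL/6J, differentiated in vitro, of unknown age, with no genotype, treatment, time point or control named. There were 2 biological replicates with 2 technical libraries each, and the authors pooled the libraries of a replicate into 1 list of peaks and 1 list of hotspots, which are wider regions dense in cuts. Replicate 1 had 236802 peak entries and replicate 2 had 67564. The depth is unknown, and nothing in the labels says whether the replicates came from separate donors. The labelled cell type was checked by promoter peaks: all 8 myeloid marker genes looked up had a peak shared by both replicates within 1 kb of a start, as did 61.2% of all autosomal protein-coding genes with an intron. The same held for 1 of 3 B cell markers (Pax5), 0 of 3 T cell markers, 0 of 2 erythroid markers, 1 of 3 fibroblast markers (Col1a1) and 2 of 3 endothelial markers (Pecam1 and Cdh5). In replicate 1 alone, 2 of 3 B cell, 1 of 3 T cell and 1 of 2 erythroid markers had a promoter peak. Longer gene lists, described below, set the lineages less far apart. A shared promoter peak was present at 13 of 13 myeloid transcription factors, 14 of 16 monocyte and macrophage genes and 12 of 17 neutrophil genes. It was present at 8 of 12 erythroid and megakaryocyte genes, 6 of 14 T and NK cell genes and 4 of 12 B cell genes. The part of other cell types in the peaks was not tested.

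Enhancers, the sequences that raise transcription of a gene from a distance, often lie in introns, either of the gene they act on or of a neighbour. In myeloid cells they are bound by PU.1 (encoded by Spi1), which belongs to the ETS family, by RUNX1, by C/EBP factors and by AP-1, the dimer of FOS and JUN proteins. CTCF binds insulator sites that shape chromatin loops, and KLF and SP factors bind GC-rich elements typical of promoters. Each family reads a short DNA word, and a match to such a word is a description of the sequence, not proof of binding.

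The windows below show what these words look like in members, and were taken from those named by rule: the highest-ranked member for a family, the highest-ranked members in genes of a list, or the members with the most families. All sequences are the plus strand of mm10, 5′ to 3′, each 150 bases long. Capitals mark matches, on either strand, to any of the 21 word families searched that lie in the central stretch that reaches 50 bases to either side of the centre. The same word outside that stretch stays in lower case.

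The first set holds the PU.1-type ETS word, which is GAGGAAGT or GGGGAAGT and reads ACTTCCTC or ACTTCCCC on the other strand. Lrrc25 (chr8:70618976-70619125), a leucine-rich repeat membrane protein gene, had the highest-ranked member with this word, and its window also held the AP-1 word TGACTCA, 1 base shared with the PU.1 word. The others lie in Mmp9 (chr2:164942976-164943125), a neutrophil gelatinase, in Spi1 itself (chr2:91089196-91089345), in Mef2c (chr13:83609256-83609405), a leukemia-associated transcription factor, and in Plcg2 (chr8:117526296-117526445), a phospholipase of immune receptor signalling.
Lrrc25: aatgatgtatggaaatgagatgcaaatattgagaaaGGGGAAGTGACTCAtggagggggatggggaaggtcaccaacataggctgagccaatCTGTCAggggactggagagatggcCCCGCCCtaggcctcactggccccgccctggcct
Mmp9: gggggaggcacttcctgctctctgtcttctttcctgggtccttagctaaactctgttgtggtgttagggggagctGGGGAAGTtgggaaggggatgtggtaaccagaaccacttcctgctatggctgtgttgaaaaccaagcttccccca
Spi1: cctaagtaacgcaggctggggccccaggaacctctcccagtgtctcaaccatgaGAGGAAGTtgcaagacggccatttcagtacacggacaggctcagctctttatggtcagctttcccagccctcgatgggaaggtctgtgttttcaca
Mef2c: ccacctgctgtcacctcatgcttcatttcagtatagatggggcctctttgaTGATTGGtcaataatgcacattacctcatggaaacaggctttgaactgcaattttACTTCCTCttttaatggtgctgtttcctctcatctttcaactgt
Plcg2: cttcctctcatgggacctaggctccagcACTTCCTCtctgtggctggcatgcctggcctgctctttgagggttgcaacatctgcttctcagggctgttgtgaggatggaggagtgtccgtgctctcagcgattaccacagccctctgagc

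In the next set the PU.1-type word overlaps an ETS-IRF composite, in which GGAA and GAAA stand 2 bases apart; it is read on the opposite strand in both windows. They lie in Il6ra (chr3:89911356-89911505), the receptor of interleukin 6, and Zfp710 (chr7:80074936-80075085), a zinc finger gene whose window also held a C/EBP and a MEIS word. Of 180 members with the composite, 34 (18.9%) also held a PU.1-type word.
Il6ra: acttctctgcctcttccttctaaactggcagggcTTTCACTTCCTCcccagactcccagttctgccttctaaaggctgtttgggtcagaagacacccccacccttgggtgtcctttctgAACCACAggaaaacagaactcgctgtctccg
Zfp710: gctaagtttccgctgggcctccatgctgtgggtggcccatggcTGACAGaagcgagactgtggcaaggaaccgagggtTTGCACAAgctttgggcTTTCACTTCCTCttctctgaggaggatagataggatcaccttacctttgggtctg

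RUNX and C/EBP words are shown in the next set. The RUNX word searched is TGTGGTT, which all the RUNX windows printed here carry on the opposite strand. For C/EBP the words are TTGCGCAA, TTGCACAA and TTGCGTAA. The windows lie in Vgll4 (chr6:114893916-114894065), a cofactor of TEAD factors, Prtn3 (chr10:79877916-79878065), a neutrophil granule protease, Dot1l (chr10:80763616-80763765), a histone H3 methyltransferase, Pbx3 (chr2:34360136-34360285), a HOX cofactor, and Sin3a (chr9:57073316-57073465), a corepressor.
Vgll4: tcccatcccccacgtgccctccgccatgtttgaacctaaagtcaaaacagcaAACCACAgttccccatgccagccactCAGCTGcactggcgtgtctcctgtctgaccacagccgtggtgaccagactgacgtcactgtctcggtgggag
Prtn3: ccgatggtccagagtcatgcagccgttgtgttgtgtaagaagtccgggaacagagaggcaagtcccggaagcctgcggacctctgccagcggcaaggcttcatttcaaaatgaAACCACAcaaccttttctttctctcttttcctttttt
Dot1l: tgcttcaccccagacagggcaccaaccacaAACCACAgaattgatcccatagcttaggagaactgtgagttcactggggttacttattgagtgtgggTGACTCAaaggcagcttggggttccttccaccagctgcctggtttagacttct
Pbx3: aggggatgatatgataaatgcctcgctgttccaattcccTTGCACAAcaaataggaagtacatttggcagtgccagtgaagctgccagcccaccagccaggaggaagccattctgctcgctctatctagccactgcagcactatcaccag
Sin3a: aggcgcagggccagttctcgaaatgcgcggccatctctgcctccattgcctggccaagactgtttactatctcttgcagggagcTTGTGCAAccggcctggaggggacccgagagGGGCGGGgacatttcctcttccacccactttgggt

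The last set shows words that were uncommon in members or marked their GC-rich end. The Clec11a window (chr7:44305016-44305165) held the KLF/SP word GGGCGGG and was the third in rank of all members. Cdk6, the cyclin-dependent kinase of the early cell cycle, carried the generic ETS word CCGGAAGT in its strongest window (chr5:3491316-3491465). The gene 1700017B05Rik held the highest-ranked member with a CTCF word (chr9:57259876-57260025).
Clec11a: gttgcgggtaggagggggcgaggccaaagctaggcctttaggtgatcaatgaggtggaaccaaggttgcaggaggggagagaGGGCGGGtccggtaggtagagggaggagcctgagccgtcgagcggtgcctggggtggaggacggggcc
Cdk6: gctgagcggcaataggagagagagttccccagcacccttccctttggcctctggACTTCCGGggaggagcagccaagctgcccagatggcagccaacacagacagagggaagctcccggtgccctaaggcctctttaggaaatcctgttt
1700017B05Rik: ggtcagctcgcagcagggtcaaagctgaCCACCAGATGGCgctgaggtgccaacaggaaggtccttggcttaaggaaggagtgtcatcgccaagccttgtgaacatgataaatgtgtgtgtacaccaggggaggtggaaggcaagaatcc

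The replicate 1 scores of the members ran from 130 to 150, with a median of 139 (quartiles 134 and 144). Scores were whole numbers, and none exceeded 150, which is also the width of a window in bp. Their strongest partners in replicate 2 had a median score of 43 (quartiles 35 and 54) and ran from 16 to 116. Its computation is not given in the sources used, so values are compared within a list only. At a replicate 1 score of 130 there were 282 members and at 150 there were 79. Across members, the Spearman correlation of both scores was 0.596 (n = 5163 windows, a description). The same window was present in both lists for 1424 members (27.6%), and 4902 (94.9%) overlapped their partner by at least 75 bp. Overlapping windows were few, with 53 members (1.03%) overlapping another member and 65 (1.26%) sharing a partner with another.

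**Figure D1:**
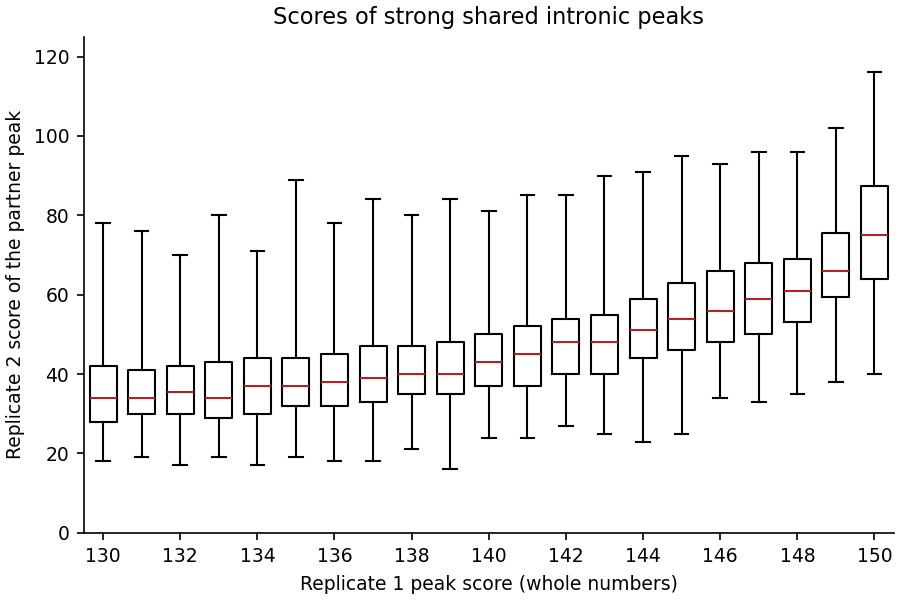
Replicate 2 score of the partner peak (vertical axis) for strong shared intronic peaks, by replicate 1 score (horizontal axis, whole numbers from 130 to 150); boxes span the quartiles, red lines are medians and whiskers run from the lowest to the highest member. Partners of members at 130 had a median of 34, and the lowest partner of all scored 16.

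Windows were about as many on both sides of the threshold. Just inside it, at 130, where 282 members lay, the strongest partners in replicate 2 belonged to windows in Shank2 (score 78), Lrrc75a (73) and Emid1 (70). Just outside it, 1 point lower, there were 287 windows with a median partner score of 32, led by windows in Erich1 (76), 2900026A02Rik (73) and Sp9 (70). Among strong intronic peaks of replicate 1, 5163 (89.2%) had a partner in replicate 2 and 628 (10.8%) had none. Of all autosomal replicate 1 peaks with a score of 130 or more, 91.4% had a partner. In all, members made up 20.8% of 24877 strong shared peaks and 30.5% of 16952 shared intronic peaks.

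Every member lay in a hotspot of replicate 1 and 5161 lay in a hotspot of replicate 2. All of the replicate 1 hotspots were at the ceiling of the deposited −log10 q value, 100, as were those of 49.7% of members in replicate 2. For weaker shared intronic peaks (11789 windows with a score under 130) the replicate 2 share was 27.4%, and for strong shared intergenic peaks (6584 windows touching no protein-coding gene) it was 55.3%. The replicate 1 share at the ceiling was 97.7% for weaker shared intronic peaks and 100% for strong shared intergenic peaks. The hotspots around members had median widths of 984 bp in replicate 1 and 319 bp in replicate 2, against 495 bp and 204 bp around weaker shared intronic peaks. Around strong shared intergenic peaks the medians were 992 bp and 333 bp, and around strong shared promoter peaks 1647 bp and 712 bp. Members had a median GC content of 50.7%, the same as weaker intronic peaks, against 46.5% in the sequence 500 bp away and 64.7% in strong shared promoter peaks. At least 50% of the window was soft-masked repeat in 3.54% of members, 10.4% of weaker shared intronic peaks and 4.27% of strong shared intergenic peaks.

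The 10 members with the highest mean rank in both lists lay mostly near a gene start. Of these, 8 were within 2.5 kb of a TSS, against 38 of the first 100 and 865 of all 5163 members (16.8%). The strongest was in the first intron of Aida, an axin-interacting protein gene (chr1:183299256-183299405), with scores of 150 in replicate 1 and 116 in replicate 2, 1.69 kb from the nearest TSS. The window in Cdkn1a, which encodes the cell cycle inhibitor p21 (chr17:29095376-29095525), scored 150 and 102. Clec11a, a secreted growth factor of blood progenitors, held a pair of windows with 150 and 102, and 150 and 100. Elf2, an ETS factor, had 150 and 100, Mnt, a MAX-binding repressor, and Dlg4, a synaptic scaffold, both had 150 and 97, and Nr1d1, the clock repressor REV-ERB alpha, had 150 and 96. The exceptions in position were Itpkb, an inositol trisphosphate kinase (149 and 102, 53.7 kb from a TSS), and Rai1 (149 and 100, 10.1 kb). Among the first 10, 5 windows had the KLF/SP word and none had a PU.1-type, RUNX, C/EBP or AP-1 word. Over all members the shares were 3.76% (KLF/SP), 12.5% (PU.1-type), 8.52% (RUNX), 2.98% (C/EBP) and 7.57% (AP-1). With 10 windows, the absence of a word cannot be told apart from such shares, and no test was run.

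Sequence make-up differed between members of low and high replicate 2 score. Among the 1393 members with a partner score from 16 to 35, the KLF/SP word was present in 1.01% (95% Wilson interval 0.600 to 1.68) and median GC was 48.0%. Among the 1273 with a score from 55 to 116 it was present in 7.93% (6.57 to 9.55) and GC was 54.0%. The PU.1-type word went the other way, from 14.6% (12.9 to 16.6) to 10.1% (8.52 to 11.8). RUNX showed no single direction, with 9.26% (7.85 to 10.9) in the lowest class, 10.3% (8.74 to 12.2) and 7.71% (6.38 to 9.29) in the middle classes and 6.83% (5.57 to 8.35) in the highest. No test was run across these classes. C/EBP words were in 2.37% (1.69 to 3.31) and 3.69% (2.79 to 4.88). The CTCF word, rare in members, was in 0.0718% (0.0127 to 0.406) of the lowest class, 0.50% and 0.925% of the middle classes, and 1.65% (1.08 to 2.51) of the highest. The median distance to a TSS was 11353 bp in the lowest and 7642 bp in the highest of these score classes. Intervals here and below cover counting error over windows only.

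Word matches were concentrated at member centres. The share of members with a match within 50 bp of the centre was compared with a window of equal width centred 500 bp toward the chromosome start (exact McNemar test, 2-sided, Benjamini-Hochberg adjusted over 21 families). Of the 21 families, 14 (66.7%) were more common at centres and 0 (0%) were less common, at an adjusted p of 0.05 or less. Windows are not replicates of the cultures, so these p-values describe the list of sites. The flank itself was in a replicate 1 hotspot for 57.6% of members, and a window 2 kb away was in 19.8%.

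The PU.1-type ETS word was in 644 members (12.5%, 95% Wilson interval 11.6 to 13.4) at the centre and 1.36% at the flank, 9.20 times as often (adjusted p = 1.32e-118, exact McNemar test). Over all autosomal replicate 1 peaks it was in 8.26%. The word was concentrated at centres in the other sets as well. It was in 7.78% of centres and 0.865% of flanks of weaker shared intronic peaks, and in 11.1% and 1.38% of strong shared intergenic peaks. RUNX words were in 8.52% against 2.73% at the flank (adjusted p = 1.97e-37, exact McNemar test), AP-1 in 7.57% against 2.09% (adjusted p = 1.36e-39), and C/EBP in 2.98% against 0.387% (adjusted p = 1.75e-26). The ETS-IRF composite was in 3.49% against 0.910% (adjusted p = 6.52e-19, exact McNemar test). KLF/SP, at 3.76% against 1.12%, and CTCF, at 0.775% against 0.0194%, were also more common at centres. Smaller ratios were seen for MYB (AACTGNC, 7.69% against 4.94%), the E-box CAGCTG (7.40% against 4.51%) and MEIS (TGACAG, 10.3% against 7.44%), all past the same threshold. HOX9/PBX, read as TGATTTAT, was in 0.949% against 0.445% (adjusted p = 0.00441, exact McNemar test). The generic ETS word, the E-box CACGTG and NFY (CCAATCA or CCAATGA) completed the 14. With a score minimum of 140 the call for CTCF was lost (6.0 times as common at centres), and those for HOX9/PBX and NFY were lost with the strongest member per gene (1.92 and 1.44 times) or 25 bp on either side (1.77 and 1.52 times). With replicate 2 alone (294 windows) 6 of the 21 families passed. The calls for RUNX (2.57 times), the E-box CACGTG (3.75 times), generic ETS (2.0 times), the ETS-IRF composite (1.75 times), MYB (1.64 times) and the E-box CAGCTG (1.31 times) were lost there, and MEIS turned to 0.875 times.

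The other 7 families did not pass. For factors that relay signals these were STAT, searched as TTCCNGGAA, NF-kB, searched as GGANTTTCC, EGR, searched as GCGTGGGCG, and the ISRE-type IRF word. The last is a pair of GAAA words that stand 2 bases apart. TEAD, searched as ACATTCC, did not pass either, and the remaining families were GATA and SOX. The GATA word AGATAAG was in 1.41% of centres (1.13 to 1.77) and 1.32% of flanks (adjusted p = 0.799, exact McNemar test), although several GATA factors act in blood progenitors. The SOX word AACAATG was in 1.14% of centres (0.887 to 1.47) and 1.49% of flanks (adjusted p = 0.202, exact McNemar test). No word of any family was found at the centre in 2186 members (42.3%), which says only that these exact letters are not in that stretch.

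Matches were densest in the middle of the window. The central 40 bp held 13.6 times as many PU.1-type matches per base as the stretch from 300 to 500 bp on either side, 10.5 times as many C/EBP matches, 4.49 times as many AP-1 and 3.30 times as many RUNX. The ratio was 1.37 for MEIS and 1.08 for GATA. Within 50 bp of the centre the median distance of a PU.1-type match was 21.5 bp and that of a RUNX match was 25 bp.

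**Figure D2:**
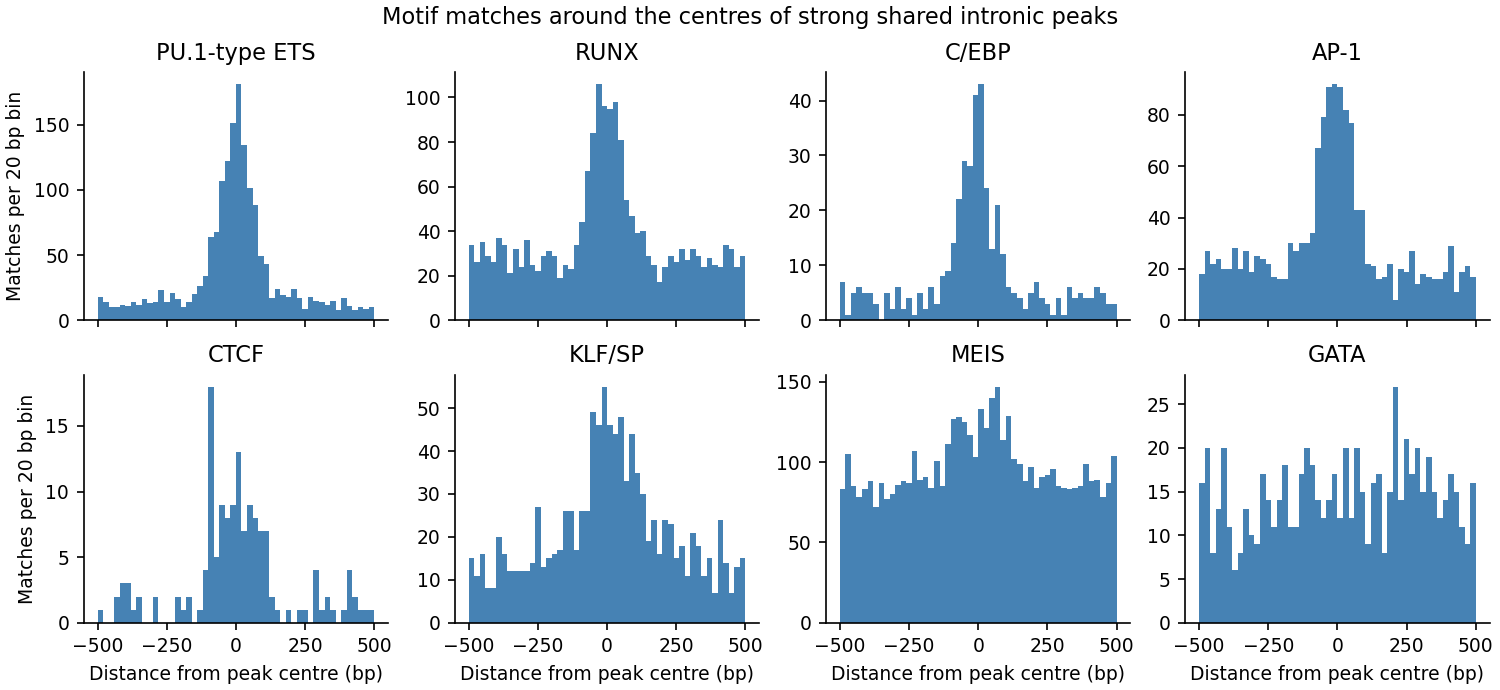
Number of word matches per 20 bp bin (vertical axis, a scale of its own in each panel) by distance from the centre of strong shared intronic peaks in bp (horizontal axis), for 8 families over 5163 members. PU.1-type, C/EBP, AP-1 and RUNX matches peak at the centre, where their density was 13.6, 10.5, 4.49 and 3.30 times that of the outer bins, and GATA matches do not (1.08).

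The main families were found together in a minority of windows. Of the 644 members with a PU.1-type word, 7.92% (6.07 to 10.3) also had a RUNX word, against 8.61% (7.83 to 9.46) of the other members. AP-1 words accompanied 5.90% (4.33 to 8.0) of PU.1-type members and 7.81% (7.06 to 8.63) of the rest. C/EBP words accompanied 1.86% (1.07 to 3.23) and 3.14% (2.67 to 3.69). In each of these pairs the intervals overlap, and no test of pairs was run.

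Members differed in sequence from the weaker shared intronic peaks, with CTCF and the myeloid words on opposite sides (Fisher's exact test, 2-sided, Benjamini-Hochberg adjusted over 42 tests). Of 21 families, 11 (52.4%) were more common in members and 1 (4.76%) was less common. The PU.1-type word was in 12.5% of members and 7.78% of weaker peaks (adjusted p = 3.51e-20, Fisher's exact test), and AP-1 was in 7.57% and 3.79% (adjusted p = 1.46e-22). RUNX was in 8.52% and 5.34% (adjusted p = 2.69e-13, Fisher's exact test), C/EBP in 2.98% and 1.77% (adjusted p = 9.54e-06) and KLF/SP in 3.76% and 2.47% (adjusted p = 4.33e-05). The ETS-IRF composite, MEIS, GATA, MYB, NFY and HOX9/PBX were the other families more common in members, with ratios from 1.17 for MYB to 1.67 for HOX9/PBX. CTCF was the family less common in members: 40 windows (0.775%, 0.569 to 1.05) against 1465 weaker peaks (12.4%, 11.8 to 13.0; adjusted p = 3.58e-183, Fisher's exact test). GC content had the same median in both sets. The CTCF ratio of members to weaker peaks was 0.0623, and it was 0.244 when unshared peaks of replicate 1 entered both sets, with the call kept. With a score minimum of 140 the calls for C/EBP (1.40 times), the ETS-IRF composite (1.23 times), GATA (1.38 times), MEIS (1.11 times) and HOX9/PBX (1.32 times) were lost. Those for GATA (1.11 times), NFY (1.20 times) and HOX9/PBX (1.37 times) were lost when unshared peaks entered both sets. With the strongest member per gene the calls for GATA (1.52 times), MEIS (1.17 times), MYB (1.15 times) and HOX9/PBX (1.57 times) were lost, and with 25 bp on either side those for GATA (1.57 times), MYB (1.18 times), NFY (1.21 times) and HOX9/PBX (1.75 times). MYB also lost its call with noncoding starts and exons excluded (1.16 times), and NFY with windows under 50% soft-masked (1.26 times). The HOX9/PBX call was also lost with a minimum of 120 (1.44 times), with an overlap of at least 75 bp (1.59 times) and with noncoding starts and exons excluded (1.56 times).

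The PU.1-type share was higher in the upper score classes, and that of CTCF rose and then fell. Among shared intronic peaks with a replicate 1 score from 30 to 59, 3.47% (2.15 to 5.56) had a PU.1-type word, rising to 12.4% (11.2 to 13.7) from 120 to under 130 and 13.3% (12.0 to 14.6) from 130 to under 140. At 140 to 150 it was 11.6% (10.4 to 12.9). CTCF was in 11.1% (8.52 to 14.3) at 30 to 59, in 17.3% (15.3 to 19.5) at 80 to 89, in 5.08% (4.31 to 5.98) from 120 to under 130, and in 0.246% (0.113 to 0.537) at 140 to 150. AP-1 rose from 2.60% (1.5 to 4.49) in the lowest of these classes to 8.25% (7.23 to 9.41) in the highest.

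**Figure D3:**
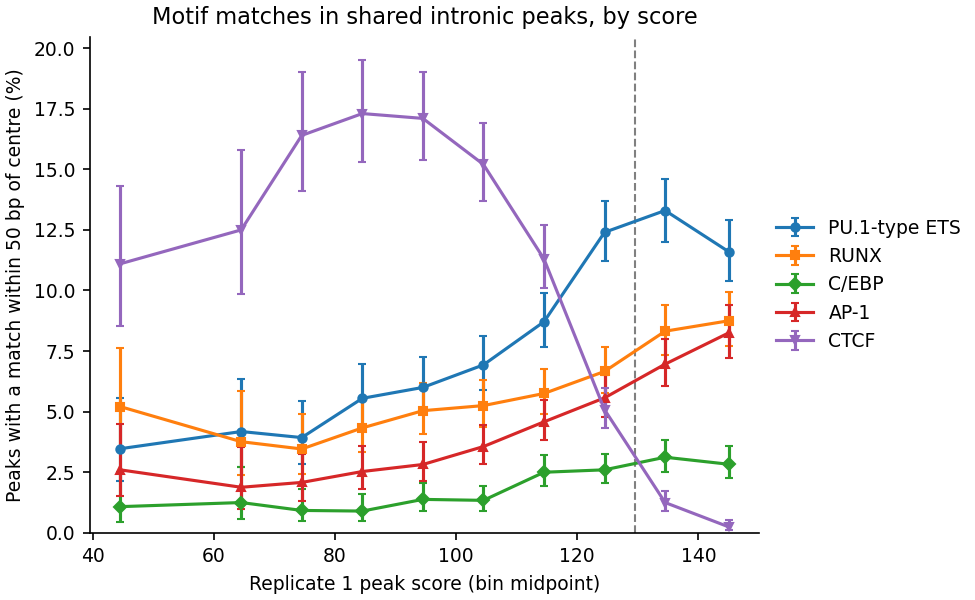
Share of shared intronic peaks with a word match within 50 bp of the centre (vertical axis, %) by replicate 1 score (horizontal axis, midpoints of the score classes), for 5 families; error bars are 95% Wilson intervals and the dashed line marks the score of 130 from which peaks are members. CTCF is at 11.1% in the lowest class, 17.3% at 80 to 89 and 0.246% at 140 to 150, while the PU.1-type share is 3.47% in the lowest class and 11.6% in the highest.

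Replicate 1 supplied the score behind that contrast, so the contrast was also taken from replicate 2 alone. Its intronic peaks in the same top fraction of its own list (score of at least 72, shared or not) numbered 294. Against weaker intronic peaks of replicate 2, AP-1 words were 1.91 times, C/EBP 2.56 times, KLF/SP 4.94 times and NFY 2.68 times as common in these, all still past the threshold. The calls for the PU.1-type word (1.05 times), RUNX (1.08 times), HOX9/PBX (1.13 times) and CTCF (0.693 times) were lost there. The ratios for the ETS-IRF composite (0.956), GATA (0.339), MEIS (0.788) and MYB (0.870) turned below 1. These differences passed with the replicate 1 score and not with that of replicate 2, where fewer windows were tested. The sets compared also differed, because the partners of members had an upper quartile of 54, under the minimum of 72. Most members therefore corresponded to weaker peaks in the contrast from replicate 2. At centres against flanks, the PU.1-type word (5.0 times) kept its call and RUNX did not.

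Members differed from strong shared intergenic peaks in few families. No family (0%) was more common in members, and 3 of 21 (14.3%) were less common, by the same test. These were CTCF (0.775% against 1.67%, adjusted p = 8.39e-05, Fisher's exact test), KLF/SP (3.76% against 5.22%, adjusted p = 0.000646) and NFY (2.83% against 3.96%, adjusted p = 0.00300). The calls for KLF/SP (0.794 times) and NFY (0.740 times) were lost with the strongest member per gene, and that for CTCF (0.561 times) with 25 bp on either side; all 3 were lost with replicate 2 alone. The PU.1-type word was in 12.5% of members and 11.1% of intergenic peaks (10.4 to 11.9), which missed the threshold (adjusted p = 0.0644, Fisher's exact test). It passed in 8 alternative settings, where the ratio was between 1.12 and 1.21. RUNX (8.52% and 7.81%), C/EBP (2.98% and 2.93%) and AP-1 (7.57% and 7.46%) did not pass either, with adjusted p-values of 0.311, 0.898 and 0.896 in Fisher's exact test.

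The members lay closer to gene starts than weaker shared intronic and strong shared intergenic peaks, within the limit of 1 kb that the rule sets. Strong intronic peaks without a partner in replicate 2 lay closer still, with a median of 7956 bp to the nearest protein-coding TSS (628 windows). The median distance to the nearest protein-coding TSS was 9578 bp (quartiles 3700 and 22951), against 11849 bp for weaker shared intronic and 20352 bp for strong shared intergenic peaks. Of all members, 520 (10.1%) were over 50 kb from a TSS, against 13.5% of weaker shared intronic and 25.6% of strong shared intergenic peaks. Within 1 kb of the start of a long noncoding RNA lay 106 members (2.05%), against 1.17% and 7.23% of these sets. An intron number in the transcript with the longest coding sequence could be given for 4730 members. Of these, 1838 (38.9%, 37.5 to 40.3) were in the first intron, against 26.6% (25.8 to 27.5) of weaker shared intronic peaks. Among strong intronic peaks without a partner the share was 45.2% (41.1 to 49.2). First introns made up 27.2% of the intron bases of the host genes. The second intron held 797 members (16.8%) and the third 459 (9.70%). The introns themselves were long, with a median of 17592 bp for members and 13980 bp for weaker peaks.

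**Figure D4:**
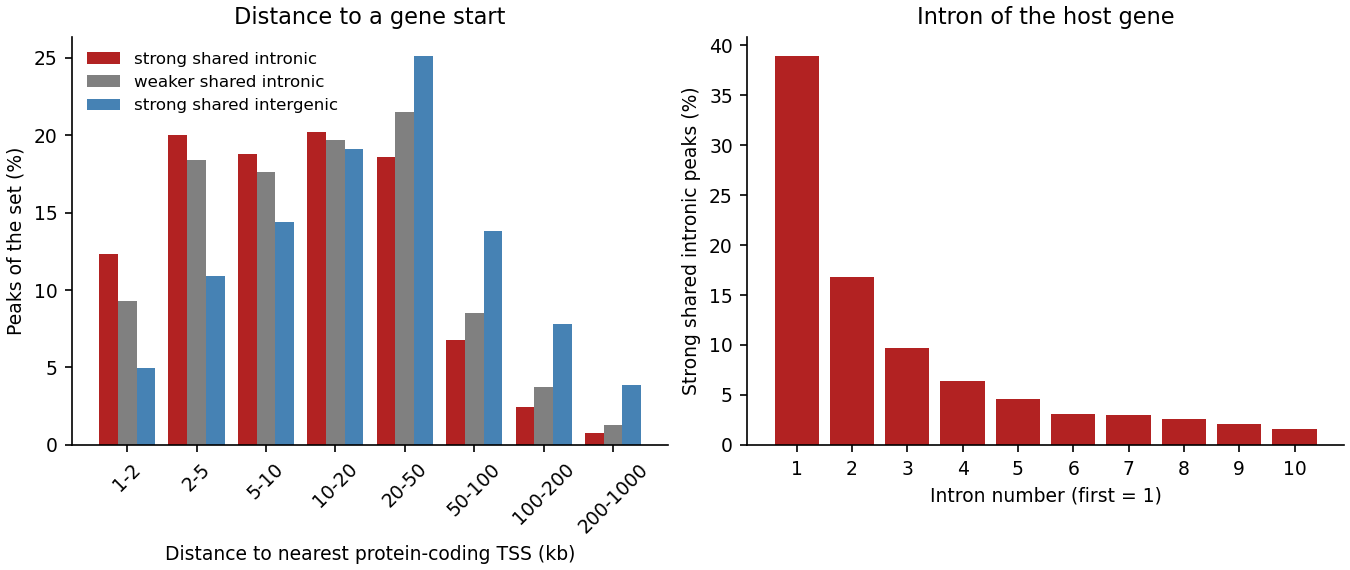
Left, share of each set (vertical axis, %) by distance to the nearest protein-coding TSS in kb (horizontal axis) for strong shared intronic, weaker shared intronic and strong shared intergenic peaks; right, share of strong shared intronic peaks (vertical axis, %) by intron number in the host gene, for introns 1 to 10. The first intron holds 38.9% of the 4730 members with an intron number, and 12.3% of members lie between 1 and 2 kb from a start against 4.94% of intergenic peaks.

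The members fell into 2795 host genes, 14.2% of the 19646 autosomal protein-coding genes with an intron. Most hosts held few: 1678 (60%) held 1 member, and 151 (5.40%) held 5 or more, together 1019 members. Hosts were long genes, with a median of 62741 bp against 19493 bp for all genes with an intron. A member was present in 1.63% of genes under 10 kb, 9.79% of those from 10 to 30 kb, 23.2% from 30 to 100 kb and 39.4% from 100 to 300 kb. A promoter peak shared by both replicates was present at 2338 hosts (83.6%) and at 57.5% of the other genes. The median distance between the starts of nearest members was 19540 bp. Another member lay within 10 kb for 2042 (39.6%) and within 1 kb for 746 (14.4%). These shares were not taken for the other sets.

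The host with the most members, Gm20388, had 50, but it is a predicted gene annotated over 4434882 bp of chromosome 8 and encloses other genes. Without genes of such Gm symbols there were 5077 members in 2774 hosts. Etv6, an ETS repressor needed in blood stem cells and broken by translocations in leukemia, had 17. Pde4d, a cyclic AMP phosphodiesterase, had 13. Baz2b, a bromodomain protein, Runx1 and Fndc3b had 12 each. Arid1b, a subunit of the BAF remodelling complex, Zfhx3, a homeobox factor, Fgfr2, a growth factor receptor, and Ldlrad4 had 11 each. The annotated body of Fgfr2 spans 2960900 bp, so its members need not lie near the receptor's own exons.

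In Etv6 and Runx1 nearly all shared intronic peaks were strong. Etv6 had 17 members and 1 weaker shared intronic peak, and Runx1 had 12 and 1. Cdk6 had 10 and 3. Pde4d, by contrast, had 13 members and 21 weaker peaks, and Nav2, a cytoskeletal gene, 9 and 23. Over all genes, members were 30.5% of shared intronic peaks.

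The members of Etv6 were spread over the gene, from 6.41 kb to 208 kb after its annotated start. The strongest (chr6:134189876-134190025) scored 148 in replicate 1 and 69 in replicate 2, and the weakest partner in replicate 2 scored 25. Of the 17, 1 held a PU.1-type word and 1 the ETS-IRF composite, and none held a RUNX, C/EBP or AP-1 word. Over all members these words were in 12.5% (PU.1-type), 3.49% (composite), 8.52% (RUNX), 2.98% (C/EBP) and 7.57% (AP-1), and 17 windows are too few to set against these shares. Runx1 had members from 2.38 kb to 213 kb after its start, led by a window 110 kb into the gene (149 and 77). Among its 12 members 3 held an AP-1 word, 1 a RUNX word and 0 a PU.1-type word.

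In Cdk6, 7 of 10 members lay together in the fifth intron, between 149 kb and 161 kb after the start. In replicate 1 they scored between 132 and 149, and their partners between 41 and 72. Fli1, an ETS factor of blood and vessel progenitors, had 6 members, all in the first intron, with scores from 136 to 146 and from 44 to 68. Erg, its close relative, had 7 members, of which the first lay 122 kb after the annotated start. Meis1, a homeobox cofactor of HOXA9 in leukemia, had 5 members and no weaker shared intronic peak. They lay from 48.9 kb to 133 kb after its start, and 2 of them held a PU.1-type word. Lcp1, which encodes the leukocyte actin bundler L-plastin, had 7 members in the first intron, 5 of them from 47.6 kb to 50.6 kb after the start.

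**Figure D5:**
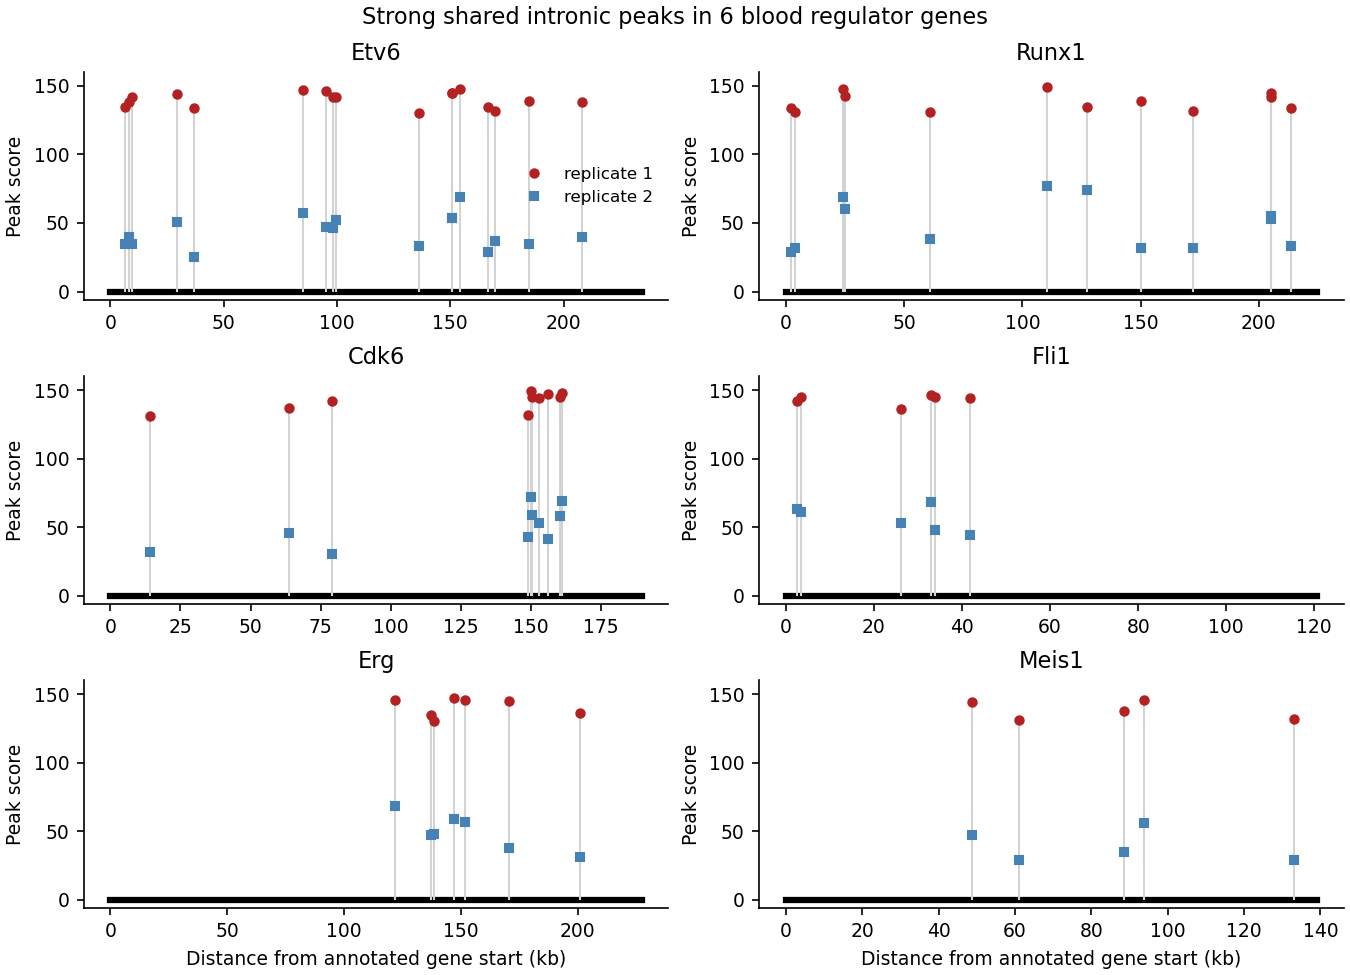
Peak scores (vertical axis) of strong shared intronic peaks in Etv6, Runx1, Cdk6, Fli1, Erg and Meis1, by distance from the annotated gene start in kb (horizontal axis); the black bar is the gene body, red circles are replicate 1 and blue squares the partner in replicate 2, on scales that are not known to be comparable. The 7 Cdk6 windows between 149 kb and 161 kb stand together, while the 17 Etv6 windows are spread from 6.41 kb to 208 kb.

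Gene lists for the lineage were described by how many of their genes hosted a member, beside 14.2% of all genes with an intron. In the list of leukocyte signalling and adhesion, 19 of 23 genes hosted 55 members, and the median gene length of the list was 99742 bp. They included Ptprc, the pan-leukocyte phosphatase CD45 (150 and 88), Fyb, an adaptor (150 and 73), Plcg2 (149 and 66) and the kinase gene Fgr (145 and 69). The genes without a member were Itgal, Itga4, Rac2 and Coro1a, of which Rac2 (13617 bp) and Coro1a (8015 bp) are short. Of the genes from 100 to 300 kb, 39.4% hosted a member.

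The regulators of blood stem cells had 8 of 18 genes with 39 members, and Etv6, Erg, Fli1 and Meis1 held 35 of these. Ikzf1, a lymphoid and myeloid zinc finger factor, had 1 member (150 and 62). Gata2, Tal1, Lmo2, Lyl1, Mecom, Hhex, Kit, Bmi1, Adgrg1 and Cd93 had none. Of the HOXA-MEIS leukemia programme, 7 of 14 genes had 23 members, with the strongest in Mef2c (149 and 72), Cdk6 (149 and 72) and Jmjd1c, a histone demethylase (150 and 63). Its Hoxa genes, all under 10 kb long, had none. Of 13 myeloid transcription factors, Runx1, Spi1, Runx3, Zeb2 and Nfe2 hosted 20 members. The 3 in Spi1 scored 138 and 53, 145 and 62, and 132 and 62. Cebpa and Irf8 had none, and both had a shared promoter peak.

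Myeloid cytokine receptors had 5 of 12 genes with members, led by Csf1r, the receptor of the macrophage growth factor (147 and 69), Tnfrsf1b (147 and 68) and Il6ra (149 and 64). Neutrophil granule and oxidase genes had 4 of 17. Among them Ncf4, a subunit of the phagocyte oxidase, had 6 members within 17780 bp and no weaker shared intronic peak, the strongest at 150 and 73. Mmp9 (149 and 85), Prtn3 (150 and 71) and Cyba (143 and 57) had 2 each. Monocyte and macrophage genes had 5 of 16, and Cx3cr1, a chemokine receptor whose annotated body spans 168264 bp, held 6 of their 10 members. Chromatin regulators mutated or fused in AML had 4 of 15 (26.7%), with a median length of 81461 bp. The hosts were Mllt10 (149 and 89), Dot1l (142 and 49), Mllt1 (134 and 41) and Asxl1 (137 and 29). Of all genes from 30 to 100 kb, 23.2% hosted a member.

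Lists of other cell types held hosts as well. B cell genes had 2 of 12 (Pax5, 130 and 28, and Ms4a1, 132 and 28), and T and NK cell genes 2 of 14 (Gata3, 146 and 70, and Bcl11b, 146 and 50). Erythroid and megakaryocyte genes had 4 of 12, with Itgb3, the platelet integrin beta chain (141 and 66), and Vwf (145 and 69) strongest. Endothelial and fibroblast genes had 3 of 13: Flt1 with 4 members, Pdgfrb with 2 and Pecam1 with 1. Neuronal genes, with a median length of 791267 bp, had 3 of 13, liver and epithelial genes 1 of 12 (Cdh1), and housekeeping genes 0 of 13, with a median length of 4753 bp. Gene length differed between these lists, and its part in the counts was not tested.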

How the data were processed

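Peak and hotspot lists on mm10 were deposited by the authors, 1 of each per biological replicate from its pooled libraries, per the labels and the files' accompanying text. The deposited peak score (whole numbers) and the deposited hotspot −log10 q value were used as they stand. The caller, aligner and depth are not given in the sources used. Repeated entries were kept once. Members were placed with GENCODE M21, in which a TSS is the start of any transcript of a protein-coding gene, and a window overlapping several genes was assigned to the smallest gene with an intron there in its transcript of longest coding sequence. Sequences came from the RefSeq GRCm38 genome, the assembly of mm10, in which no autosomal peak ended beyond the end of its chromosome. The 21 word families were searched on both strands (exact matches; overlapping matches of different families both counted). Tests were exact McNemar and Fisher's exact tests in Python 3.11.15 with scipy 1.17.1. The word search, the McNemar test and the Benjamini-Hochberg adjustment were first tried on simulated sequence, and the Fisher comparisons were not.

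The members and lists were chosen with earlier results of these data known. Named windows were the 10 of highest mean percentile rank in both lists, the 10 hosts with most members, the highest-ranked member of each word family, up to 4 genes of each list, the 5 members with most families, and 3 windows each at scores of 130 and 129. Nav2, Lcp1, Meis1 and Ncf4 windows beyond these, and the 8 families of the positional profile, were chosen after their values were seen. Intervals are 95% Wilson intervals. Alternatives are given in the closing section. Sequences of members on chromosome 18 are not reported here.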

Additional observations from a re-analysis of the deposited data

How the results depend on the processing

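The count of 5163 members became 2435 with a score minimum of 140 and 7820 with 120, and the 2795 hosts became 1592 with 140. Leaving out replicate 1 or replicate 2 gave from 294 to 5791 members, from 260 to 2923 hosts, from 5478 to 9402 bp as the median distance to a TSS, and from 39.5% to 44.4% in the first intron. That share was 41.4% with a minimum of 140, 36.0% with 120, 36.6% with a promoter distance of 2.5 kb and 50% when counted in the transcript starting nearest upstream. The median distance was 12742 bp with 2.5 kb and 8844 bp with starts of coding transcripts only, an alternative added after seeing the data, as were leaving out Gm-named genes, requiring an intron of the longest coding transcript, a flank 2 kb away and the strongest member per gene.

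Families more common at centres numbered from 6 to 14 without a replicate. Those more common than in weaker intronic peaks numbered 6 with 140, 7 with 25 bp on either side, and from 4 to 10 without a replicate, and those less common from 0 to 1. Against intergenic peaks, 2 were more common with a minimum of 120 and with 25 or 75 bp on either side, and 1 with 2.5 kb, with noncoding starts excluded, without Gm-named genes, with the longest coding transcript and with windows under 50% soft-masked. Without a replicate these counts ran from 0 to 1, and those less common from 0 to 3. With the strongest member per gene, 1 was less common. Without replicate 1 the ratios to weaker intronic peaks turned for the ETS-IRF composite (0.956; 1.49 without replicate 2), GATA (0.339; 1.11), MEIS (0.788; 1.10) and MYB (0.870; 1.18), and that of centre to flank for MEIS (0.875; 1.40). Fewer windows were tested there, and most partners of members scored under the minimum used for replicate 2. Ratios with a share of 0 in the denominator or the numerator had no value there. Of 973 motif results under alternatives that enter their test, 896 stayed on the same side of the threshold. The call was lost in 42, gained in 30 and turned in direction in 5. Results without a call could change direction and still count among the 896. For example, NF-kB against intergenic peaks had a ratio of 0.785 in the main setting and 1.23 without replicate 1. No paired analysis was possible because each replicate has 1 list and there are no groups to pair. The unknown depth limits what a missing partner in the shorter list of replicate 2 can show.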
